A study of Mus musculus with 36 samples.

Results

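The data described here are the hearts of KO mice on either side of lights off: 3 libraries from ZT14 against 3 from ZT10, chosen by their sample titles, 6 of the 36 samples in the series. ZT is zeitgeber time, in hours after lights on under 12 h of light and 12 h of dark, so the groups stand 4 h apart with the change to darkness between them. The KO mice carried the genotype Reverb fl/fl /MHC+ and the WT mice Reverb fl/fl. Both genotypes therefore carry the floxed allele, and all were C57BL/6 mice of 8 weeks on normal chow. ZT14 and ZT10 of WT (3 libraries each) serve for comparison between genotypes. The filter and the spread behind each p-value, also for KO ZT14 against KO ZT10, come from all 33 libraries with values. MHC usually stands for the myosin heavy chain promoter that drives Cre in heart muscle cells, which would leave other cells of the heart with the floxed allele intact. No group carried MHC alone. RNA came from whole hearts and was sequenced in bulk, and values are in FPKM, which scale the fragments of a gene by its length and by the depth of the library.

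REV-ERB proteins, the products of Nr1d1 and Nr1d2, are nuclear receptors that repress transcription by recruiting a corepressor. They compete with ROR activators at ROR elements, among them those of Arntl (Bmal1), Npas2 and Nfil3, while CLOCK and BMAL1 act through E-boxes on the Per, Cry and Nr1d genes. Mice eat mostly in the dark, so the hours around lights off also bring a change of fuel, from fatty acids released in the daytime fast to glucose after a meal.

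Total fragments behind the FPKM values, recovered from their steps, came to between 15.82 and 16.12 M (M, mega) in the KO ZT14 libraries and between 15.04 and 15.48 M in the KO ZT10 libraries. Libraries of the same time correlated at 0.9946 to 0.9963 on the log2 scale, and libraries of different times at 0.9917 to 0.993. The first principal component of the 6 libraries, 42.1% of their variance, separated the times. Whether each library came from its own animal is not stated in the labels. The p-values therefore reflect only how far libraries of the same group scatter, which may be in part technical. That scatter is pooled over all 11 groups of genotype and time. In bulk samples, fewer cells of a type and less RNA per cell cannot be told apart. Nr1d1 was high in the libraries labelled KO, at 205 ± 11.5 FPKM against 20.7 ± 6.33 FPKM in WT at ZT14 and 268 ± 15.3 FPKM against 65.5 ± 2.55 FPKM in WT at ZT10 (SD, n = 3 each). Nr1d2 stood at 29.3 ± 1.89 FPKM in KO against 31.1 ± 3.59 FPKM in WT at ZT14, and at 33.7 ± 1.55 FPKM against 39.7 ± 2.38 FPKM at ZT10. A value over the whole gene does not show whether a part of it was deleted, so the libraries are named here by their labels.

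Of 11790 genes tested, 866 (7.35%) differed between KO ZT14 and KO ZT10 at an adjusted p below 0.05, by limma on log2(FPKM + 1) with Benjamini-Hochberg adjustment. These genes are referred to as called. They comprised 599 (5.08%) higher at ZT14 and 267 (2.26%) lower, while the median of all genes tested was 0.0042. Most differences were small: 165 called genes differed by at least 0.5 on the log2 scale and 17 by at least 1, of which 14 were higher and 3 lower. Without regard to the test, 2801 genes (23.8%) had no overlap between the 3 libraries of each time, and 842 of the 866 called genes were among them. The largest differences named below were also chosen for having no overlap, so it adds no support to them. Differences on the log2(FPKM + 1) scale understate the change of genes with low values. The count of called genes was 534 to 639 when 1 library was left out. It was lowest without KO ZT10 replicate 2 and fell to 542 without KO ZT14 replicate 2.

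Genes of glycogen were among the largest increases. Pygl, the liver form of glycogen phosphorylase, which releases glucose units from glycogen, had 54.5, 92.7 and 106 FPKM in the KO ZT14 libraries, against 3.88, 4.81 and 3.22 FPKM in the KO ZT10 libraries. The groups lay far apart, also in the lowest ZT14 library and the highest ZT10 library, and the log2 difference was 4.06 ± 0.66 (SE, adjusted p = 0.000219). At other times, however, Pygl varied widely between KO libraries of the same time. It had 46.2, 24.8 and 4.71 FPKM at ZT2, and 3.48, 40.7 and 19.2 FPKM at ZT6. The SE and adjusted p above rest on a spread pooled over all 11 groups of genotype and time, so this scatter is part of them. What lies behind the scatter was not tested. Ppp1r3b, which brings protein phosphatase 1 to glycogen and so favours its synthesis, had 38.0, 42.1 and 38.4 FPKM at ZT14 and 12.1, 11.7 and 10.4 FPKM at ZT10. All 3 ZT14 libraries were above all ZT10 libraries, at 3.46-fold the ZT10 mean (log2 difference 1.71 ± 0.14, adjusted p = 2.30e-08). No gene had a smaller adjusted p, and Pkdcc, a secreted kinase, shared it (log2 difference 0.90). The other glycogen-targeting subunits of the same phosphatase rose less. Ppp1r3c reached 91.6 ± 4.54 FPKM at ZT14, against 60.2 ± 7.91 FPKM at ZT10 (log2 difference 0.60, adjusted p = 3.28e-05), and Ppp1r3a 25.2 FPKM against 19.0 FPKM (0.39, adjusted p = 0.00612). Stbd1, a glycogen-binding protein that tethers glycogen to membranes, had 5.65, 5.90 and 6.21 FPKM at ZT14 and 2.44, 3.58 and 3.55 FPKM at ZT10, with no overlap (0.74, adjusted p = 0.00104). Of the 20 glycogen genes tested, these 5 were higher, none was lower and 15 were not called. Over all genes tested, 5.08% were called higher and 2.26% lower. The median of the glycogen list was 0.05. Among those not called were the muscle phosphorylase Pygm and the muscle glycogen synthase Gys1.

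**Figure D1:**
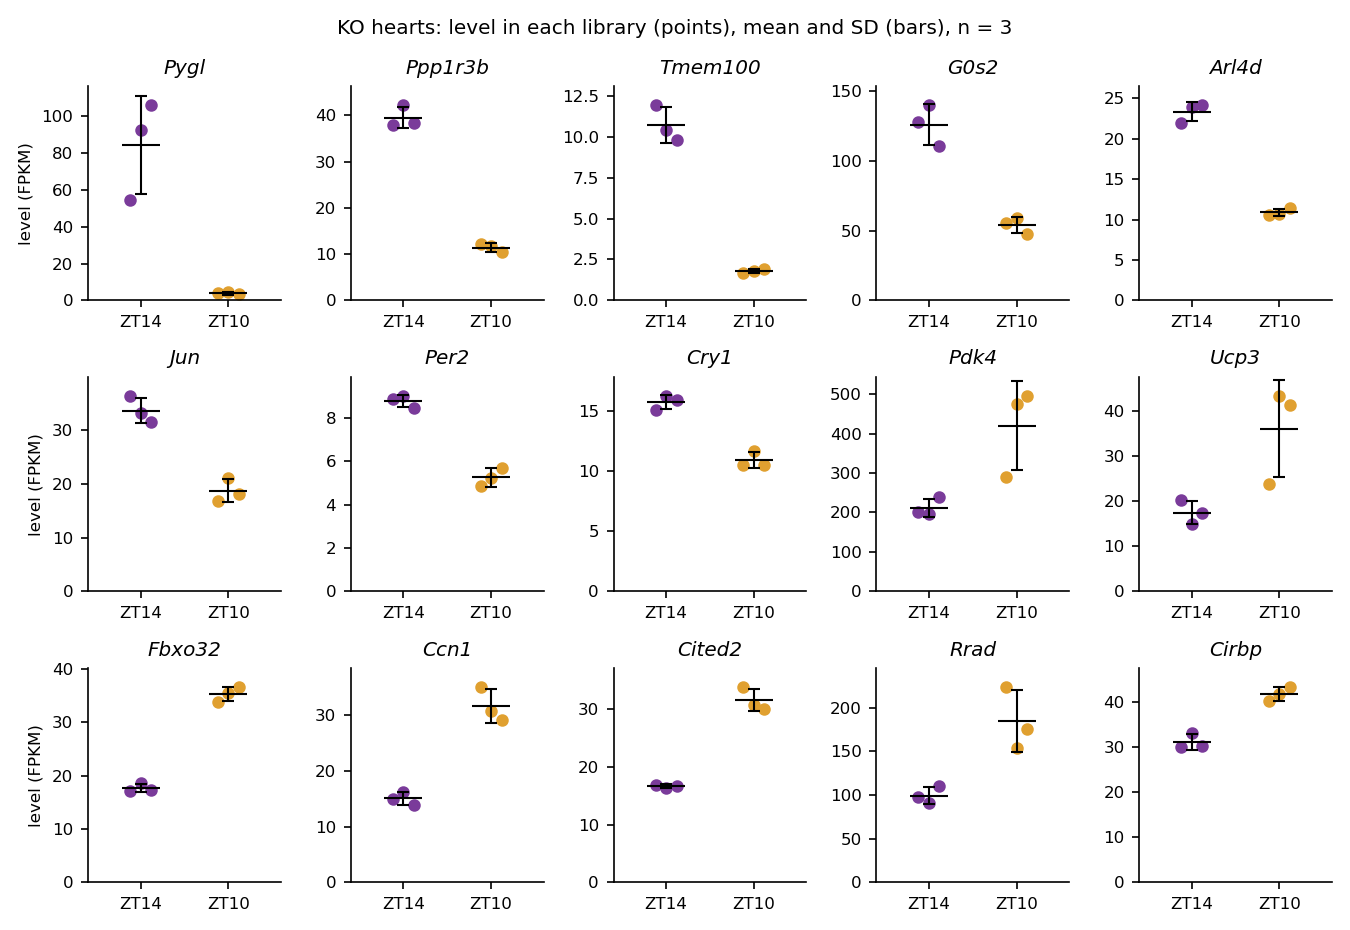
Level in FPKM of 15 genes in each KO library (points), at ZT14 (left) and ZT10 (right), with the mean and SD of 3 libraries. Pygl lies between 54.5 and 106 FPKM at ZT14 and at most at 4.81 FPKM at ZT10, and Pdk4 shows 1 ZT10 library, at 289 FPKM, below the other two.

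Further large increases were spread over several functions. Tmem100, a membrane protein of vascular cells, had 11.9, 10.4 and 9.77 FPKM at ZT14, against 1.66, 1.81 and 1.94 FPKM at ZT10 (log2 difference 2.06 ± 0.47, adjusted p = 0.0062). Rtn4r, a receptor for myelin proteins, had 28.3, 18.8 and 17.5 FPKM at ZT14 and 6.61, 7.67 and 5.68 FPKM at ZT10 (1.53 ± 0.18, adjusted p = 2.26e-06). The rule for the largest differences required that the times not overlap. In both genes the lowest ZT14 library lay well above the highest ZT10 library. G0s2, an inhibitor of the lipase that opens triglyceride stores, averaged 126 ± 14.7 FPKM at ZT14 and 54.0 ± 5.95 FPKM at ZT10 (1.21, adjusted p = 0.000421). Cited4, a coactivator of transcription factors studied in exercised hearts, averaged 55.2 FPKM against 24.8 FPKM (1.12), while its relative Cited2 went the other way, at 16.7 FPKM at ZT14 and 31.6 FPKM at ZT10 (-0.88, adjusted p = 2.05e-06). Osgin1 (1.23), Inka2, an inhibitor of the kinase PAK4 (1.16), Fam107a (1.04) and the small GTPase Arl4d (1.03) rose as well. So did a gene known here only by NCBI Gene number 108167855, with 3.01, 3.77 and 2.63 FPKM at ZT14 against 0.80, 0.82 and 0.88 FPKM at ZT10. Of these genes, Fam107a lost its call without KO ZT10 replicate 1 or KO ZT14 replicate 2 (adjusted p up to 0.126).

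Of the 30 lists other than cell markers, that of fasting-responsive genes held the most called decreases. Of the 25 genes tested in this list, headed fasting-responsive PPAR and FOXO genes, 10 were lower at ZT14, 1 was higher and 14 were not called. Over all genes tested, 2.26% were called lower and 5.08% higher. The list was written with earlier results of these data known. The median of the list was -0.17, and 21 of the 25 differences were negative. Pdk4, the kinase that shuts pyruvate dehydrogenase and spares glucose, had 201, 195 and 239 FPKM at ZT14, against 289, 475 and 494 FPKM at ZT10. Every ZT14 library was below every ZT10 library (log2 difference -0.95 ± 0.23, adjusted p = 0.00891). One ZT10 library, replicate 1, lay closer to ZT14, and the call was lost without replicate 2 or 3 of ZT10 (adjusted p up to 0.0604). The same library was the lowest of ZT10 for the mitochondrial uncoupling protein Ucp3, which had 20.1, 14.9 and 17.3 FPKM at ZT14 and 23.7, 43.1 and 41.2 FPKM at ZT10 (-0.97 ± 0.19, adjusted p = 0.00148). Fbxo32 (atrogin-1) and Trim63 (MuRF1) are the muscle ubiquitin ligases that FOXO factors induce. Fbxo32 had 17.2, 18.6 and 17.4 FPKM at ZT14 and 33.9, 35.4 and 36.5 FPKM at ZT10, tight groups with a wide gap between them (-0.96 ± 0.12, adjusted p = 8.91e-06). Trim63 averaged 72.2 ± 3.49 FPKM at ZT14 against 99.4 ± 7.49 FPKM at ZT10 (-0.45, adjusted p = 0.000496). The other 6 decreases were those of Ucp2 (-0.62), the acyl-CoA thioesterases Acot1 (-0.58) and Acot2 (-0.35), malonyl-CoA decarboxylase Mlycd (-0.30), the fatty acid binding protein Fabp3 (-0.20) and the fatty acid transporter Cd36 (-0.17). The 1 increase was that of Cited4. The count of decreases was 5 without KO ZT10 replicate 2, 9 without KO ZT10 replicate 1, and between these for the other libraries left out.

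For the lists that follow, the shares over all genes tested were again 5.08% called higher and 2.26% called lower. The enzymes of fatty acid oxidation themselves shifted little. Of 22 tested, 2 were lower, acyl-CoA synthetase Acsl1 (-0.18) and the very-long-chain dehydrogenase Acadvl (-0.14), and 21 of 22 differences were negative (median -0.11). Both calls were lost without KO ZT10 replicate 2 or KO ZT14 replicate 2, and that of Acadvl also without replicate 3 of either time, with adjusted p up to 0.16 for Acsl1 and 0.195 for Acadvl. Acadvl overlapped between times, at 390 to 428 FPKM at ZT14 and 421 to 466 FPKM at ZT10. Without KO ZT10 replicate 1, 6 of the list were called lower. Of the 19 genes that respond to insulin and feeding, 3 rose and 2 fell, with a median of 0.000606. Among the increases, Nr0b2 (SHP), a nuclear corepressor, rose to 19.4 ± 0.596 FPKM at ZT14, against 11.5 ± 1.01 FPKM at ZT10, and the desaturase Scd2 to 9.52 ± 0.325 FPKM against 6.58 ± 1.02 FPKM. Scd2 lost its call without KO ZT10 replicate 3 (adjusted p = 0.0778). The acyltransferase Gpam (-0.31) and the arrestin-like Arrdc3 (-0.40) fell. Without KO ZT14 replicate 2 neither was called (adjusted p = 0.0578 for Arrdc3), and without KO ZT10 replicate 2 or KO ZT14 replicate 1 the list had 1 gene called lower. In glycolysis, 1 of 23 rose and 1 fell: phosphoglycerate mutase Pgam1 had 86.3 FPKM at ZT14 against 64.2 FPKM at ZT10 (0.42), and Fbp2, the muscle fructose bisphosphatase that opposes glycolysis, 6.30 FPKM against 11.6 FPKM (-0.78, adjusted p = 0.00349).

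**Figure D2:**
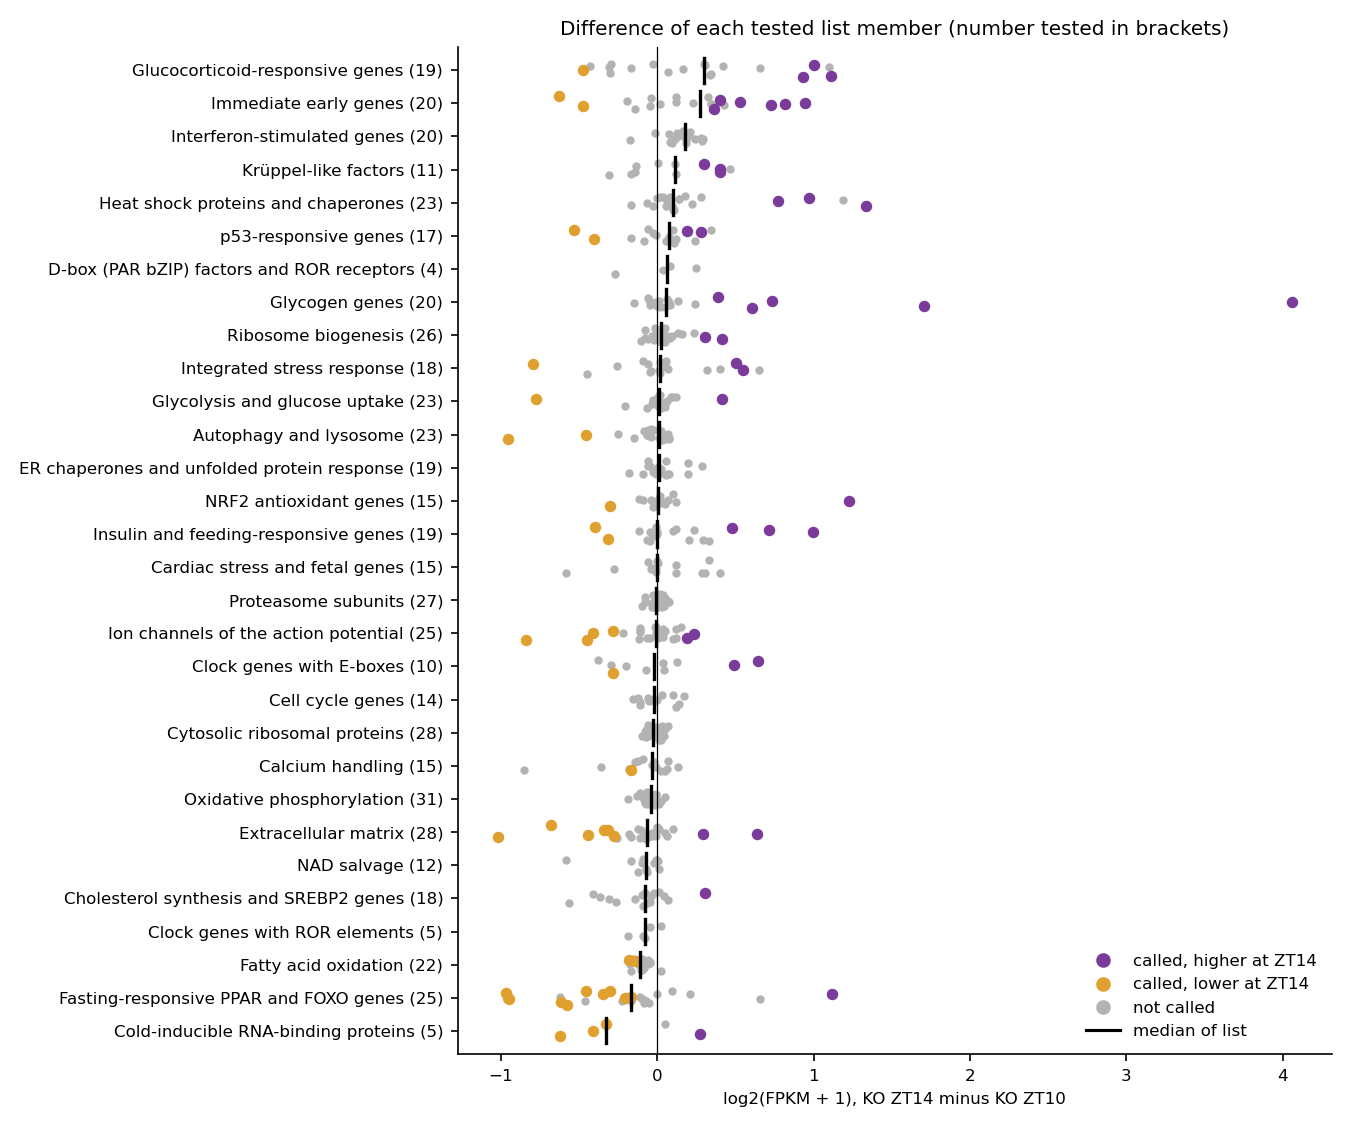
Difference in log2(FPKM + 1), KO ZT14 minus KO ZT10, of each tested member of 30 gene lists, ordered by the median of the list (black line). Purple points were called higher at ZT14, orange points called lower and grey points not called. Of the 25 fasting-responsive genes 10 are orange, and of the 20 glycogen genes 5 are purple. Over all genes tested, 2.26% were called lower and 5.08% higher.

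Of 19 clock genes tested, 3 were called and 16 were not, where 7.35% of all genes were called. Per2, a repressor of CLOCK and BMAL1, had 8.87, 8.98 and 8.44 FPKM at ZT14, against 4.84, 5.21 and 5.70 FPKM at ZT10, with no overlap (log2 difference 0.65 ± 0.18, adjusted p = 0.0214). Leaving out KO ZT10 replicate 1 or 2, or KO ZT14 replicate 1 or 2, took this above the threshold (adjusted p up to 0.0781). Cry1, the partner of PER proteins, rose to 15.7 ± 0.588 FPKM at ZT14, against 10.9 ± 0.682 FPKM at ZT10 (0.49 ± 0.07, adjusted p = 1.48e-05), and kept its call with any library left out. Bhlhe41 (DEC2), which also represses at E-boxes, had 9.98, 9.71 and 9.39 FPKM at ZT14 and 12.1, 13.03 and 11.0 FPKM at ZT10 (-0.28 ± 0.08, adjusted p = 0.0388). It kept its call only without KO ZT10 replicate 3 (adjusted p up to 0.188). Per1 (-0.29), Per3 (0.04), Cry2 (0.04), Ciart (0.13), Bhlhe40 (-0.07), Nr1d1 (-0.38) and Nr1d2 (-0.20) were not called, although the times did not overlap for Nr1d1, with 219, 198 and 200 FPKM at ZT14 against 266, 284 and 254 FPKM at ZT10 (adjusted p = 0.17). None of the 5 genes known for ROR elements was called. Among them, Arntl averaged 25.9 FPKM at ZT14 and 27.5 FPKM at ZT10, Clock 9.68 and 9.97 FPKM, Npas2 5.73 and 6.65 FPKM, and Nfil3 38.3 and 37.6 FPKM. The output factors Dbp (-0.27, adjusted p = 0.193), Tef (0.08) and Hlf (0.25, adjusted p = 0.079) and the receptor Rora (0.04) were not called either. For Hlf the libraries did not overlap, at 15.5 to 17.1 FPKM at ZT14 and 13.1 to 14.1 FPKM at ZT10.

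Promoter windows of 250 bases before the start of a gene, from RefSeq (GRCm38.p6), were searched for the E-box, CACGTG, which reads the same on both strands. It was found in 6.02% of all windows and in those of 10.07% of the tested genes that had a window. Of the 10 clock genes listed for E-boxes, 8 had a window and 4 held the motif (Per1, Cry1, Ciart and Bhlhe41). The windows of the called genes Cry1 and Bhlhe41 are shown because both hold the same 6 letters while Cry1 was higher and Bhlhe41 lower at ZT14. Both genes lie on the minus strand, at chr10:85185055-85185304 (Cry1) and chr6:145865421-145865670 (Bhlhe41). The E-box, in capitals, begins 60 bases before the start of Cry1 and 153 bases before that of Bhlhe41.
Cry1: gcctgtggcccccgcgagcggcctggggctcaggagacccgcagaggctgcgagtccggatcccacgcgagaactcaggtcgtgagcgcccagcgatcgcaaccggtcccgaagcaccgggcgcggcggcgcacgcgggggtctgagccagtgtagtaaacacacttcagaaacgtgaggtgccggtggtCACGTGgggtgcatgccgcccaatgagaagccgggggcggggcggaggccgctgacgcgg
Bhlhe41: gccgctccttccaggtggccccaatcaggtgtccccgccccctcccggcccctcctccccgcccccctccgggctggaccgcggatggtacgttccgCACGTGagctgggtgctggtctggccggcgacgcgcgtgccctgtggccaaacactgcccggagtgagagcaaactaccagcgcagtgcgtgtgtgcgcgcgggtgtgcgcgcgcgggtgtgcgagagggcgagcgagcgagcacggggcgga
The ROR element, TAGGTCA or TGGGTCA on either strand, was in 5.38% of all windows and in 1 of the 4 windows of its list, that of Nfil3. These are matches of letters in a window and describe no binding.

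**Figure D3:**
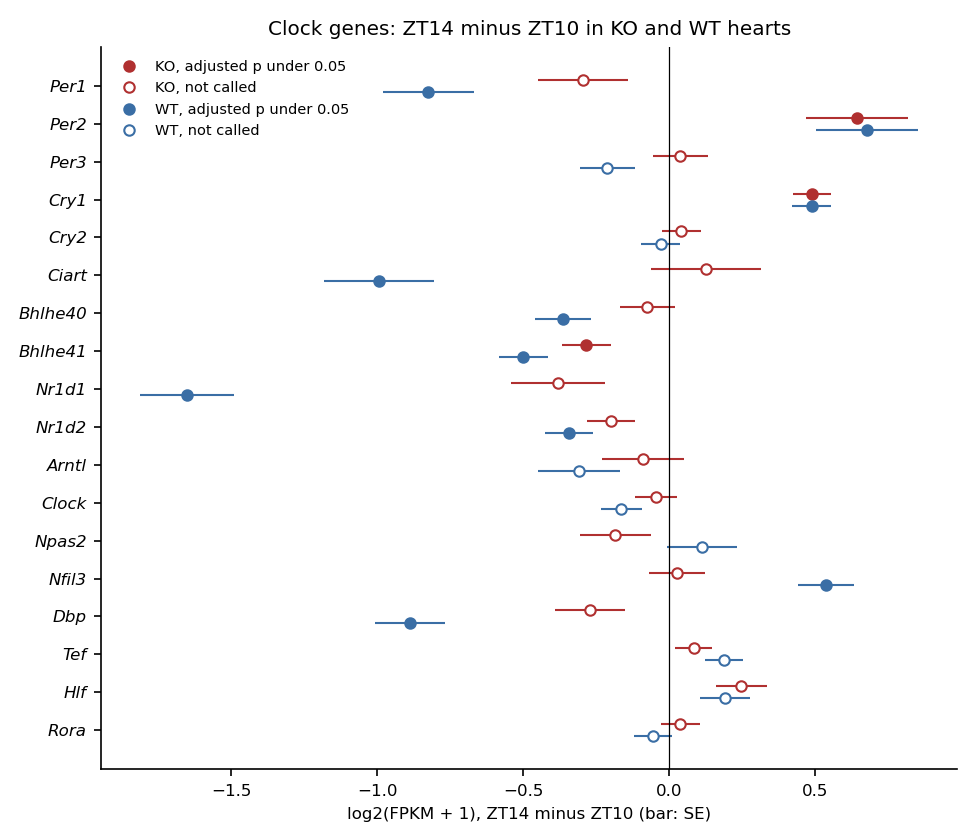
Difference in log2(FPKM + 1), ZT14 minus ZT10, with its SE, for 18 clock genes in KO hearts (red) and WT hearts (blue). Filled points have an adjusted p below 0.05. The KO points of Per2, Cry1 and Bhlhe41 are filled and the others open, and Cry1 lies at 0.49 in both genotypes.

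Immediate early genes are switched on within minutes of a stimulus. Of 20 immediate early genes tested, 6 were higher and 2 lower at ZT14, with a median of 0.28. The shares over all genes tested were 5.08% and 2.26%. Ier5, a cofactor of heat shock factor 1, had 14.4, 13.7 and 12.9 FPKM at ZT14, against 5.98, 6.37 and 7.48 FPKM at ZT10 (log2 difference 0.95 ± 0.10, adjusted p = 2.25e-07). Jun, a subunit of AP-1, had 36.3, 33.2 and 31.6 FPKM at ZT14 and 16.9, 21.2 and 18.2 FPKM at ZT10 (0.82 ± 0.09, adjusted p = 3.73e-07). Both genes kept their calls with any library left out. Atf3 (0.72), Ier3 (0.53), Klf4 (0.40) and Jund (0.36) were the other increases. Myc fell to 1.13 FPKM at ZT14, against 2.31 FPKM at ZT10 (-0.63), and the phosphatase Dusp1 to 27.6 FPKM against 38.7 FPKM (-0.47). The calls of Atf3 and Dusp1 were lost with single libraries left out (adjusted p up to 0.136 and 0.0674), Dusp1 only without KO ZT10 replicate 3 and Atf3 without replicate 1 or 2 of either time. Without KO ZT10 replicate 1, 3 of the list were called higher. Fos (0.43) and Egr1 (0.02) were not called.

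Of 23 heat shock proteins and chaperones tested, 3 were higher and none was lower, where 5.08% of all genes were called higher. Of their differences 19 were positive, with a median of 0.10. In a fit of the KO ZT14 and KO ZT10 libraries alone, 6 of them were called higher. The J-domain cochaperone Dnajb1 had 13.4, 11.0 and 10.4 FPKM at ZT14 and 5.53, 5.62 and 5.08 FPKM at ZT10 (0.97 ± 0.14, adjusted p = 7.47e-05). Its relative Dnaja1 averaged 33.4 ± 1.19 FPKM at ZT14 and 19.1 ± 0.811 FPKM at ZT10 (0.77, adjusted p = 0.000575). The inducible Hsp70 gene Hspa1a had 5.47, 3.22 and 2.36 FPKM at ZT14 and 0.53, 1.01 and 0.86 FPKM at ZT10, without overlap (1.33 ± 0.35, adjusted p = 0.0169). Hspa1a has a near-identical neighbour, Hspa1b (1.19, not called), so the split of reads between them is uncertain, and its call was lost without KO ZT10 replicate 1 or KO ZT14 replicate 1 (adjusted p up to 0.102). Among 5 RNA-binding proteins that respond to cold, 3 were lower and 1 higher at ZT14, against 2.26% and 5.08% of all genes. The median of these 5 was -0.33. Srsf5 fell to 78.9 ± 6.68 FPKM at ZT14, against 122 ± 1.95 FPKM at ZT10 (adjusted p = 2.25e-07), Cirbp, the cold-inducible RNA-binding protein, to 31.1 ± 1.72 FPKM against 41.7 ± 1.49 FPKM (-0.41), and Rbm3 to 71.7 ± 2.82 FPKM against 90.3 ± 5.71 FPKM (-0.33). These 3 decreases stayed called with any library left out. The increase of Tra2a (0.28, adjusted p = 0.0373) was lost whichever library was left out (adjusted p up to 0.149).

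In the integrated stress response, the transcription factors Atf4 (59.3 FPKM at ZT14, 41.5 FPKM at ZT10) and Ddit3 (18.7 FPKM against 12.3 FPKM) rose, while Chac1, which degrades glutathione and is known as a target of both, fell (1.81 FPKM against 3.76 FPKM). The other 15 of the 18 tested were not called. For this list and the next ones, the shares over all genes tested were 5.08% higher and 2.26% lower. The call of Chac1 was lost without KO ZT14 replicate 2 (adjusted p = 0.0874). Among 19 glucocorticoid-responsive genes, 3 rose and 1 fell (median 0.30). The stress gene Gadd45g averaged 29.4 ± 6.80 FPKM at ZT14 against 13.96 ± 1.11 FPKM at ZT10 (1.00, adjusted p = 1.48e-05). The chaperone Fkbp5 had 9.07, 12.2 and 9.35 FPKM at ZT14 and 3.66, 4.58 and 6.63 FPKM at ZT10 (0.93). Lcn2, an iron-carrier protein, had 6.46, 15.9 and 18.8 FPKM at ZT14 and 5.50, 5.14 and 5.23 FPKM at ZT10, so that 1 ZT14 library lay near ZT10 (1.11 ± 0.34, adjusted p = 0.0446). Fkbp5 kept its call only without KO ZT10 replicate 3, and Lcn2 only without KO ZT14 replicate 1 (adjusted p up to 0.157 and 0.227). Only 1 of the list was called higher without replicate 1 or 2 of ZT10, or replicate 2 or 3 of ZT14. Per1, Tsc22d3 and Klf9 of the same list were not called. Of 15 NRF2 targets, Osgin1 rose and Nqo1 fell, to 108 FPKM at ZT14 against 133 FPKM at ZT10 (-0.30, adjusted p = 0.00226).

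Other large decreases were spread over several functions. Rrad, which holds back the L-type calcium channel, had 97.6, 90.8 and 110 FPKM at ZT14, against 223, 155 and 176 FPKM at ZT10 (-0.87 ± 0.17, adjusted p = 0.00112). Every ZT14 library was below every ZT10 library, as the rule for the largest differences required. Ccn1, a matricellular protein and YAP target, had 15.1, 16.2 and 13.99 FPKM at ZT14 and 35.0, 30.8 and 29.2 FPKM at ZT10 (-1.02 ± 0.10, adjusted p = 9.02e-08), and its relative Ccn2 fell to 39.4 FPKM against 64.0 FPKM (-0.68, adjusted p = 0.0015). Of 28 matrix genes, 6 were lower and 2 higher (median -0.07), against 2.26% and 5.08% of all genes. The number lower was 2 without KO ZT10 replicate 1, KO ZT10 replicate 2 or KO ZT14 replicate 2, and in the fit of the compared groups alone. The number higher was 0 without KO ZT14 replicate 2 or 3 and in that fit, and 1 without KO ZT10 replicate 1 or 3. Klhl38, a kelch protein of muscle, fell to 6.03 ± 0.457 FPKM at ZT14 against 13.9 ± 0.956 FPKM at ZT10 (-1.08, adjusted p = 2.80e-05). The ion channels behind the action potential numbered 25, of which 4 fell and 2, Kcnj12 and Kcnh2, were called higher. Neither of these 2 was called without KO ZT10 replicate 1 or 2 or KO ZT14 replicate 2 or 3, nor after median-ratio or quantile scaling. The calcium channel subunit Cacnb2 fell to 14.7 FPKM at ZT14 against 18.2 FPKM at ZT10 (-0.28, adjusted p = 0.00207), and kept its call with any library left out. The sodium channel subunit Scn4b (-0.84), the inward rectifier Kcnj2 (-0.45) and Scn4a (-0.41) each lost theirs in at least 3 of the 6 fits without 1 library (adjusted p up to 0.152, 0.0857 and 0.269). The transcription factor Sox4 (-0.93), Frat1, an inhibitor of GSK3 (-0.90), the transporter Slc38a10 (-0.79) and Srp54b of the signal recognition particle (-0.73) completed the largest decreases. Sox4 kept its call only without KO ZT14 replicate 1, and Srp54b lost it whichever library was left out (adjusted p up to 0.0961 and 0.12). Srp54b has near-identical copies that could share its reads.

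The largest decrease by size, that of LOC100044627 (-3.81 ± 0.43), belongs to a pair that shares reads. It had 15.9, 8.66 and 12.9 FPKM at ZT14, against 187, 168 and 197 FPKM at ZT10. Its neighbour LOC100862455 had 322, 284 and 314 FPKM at ZT14 and exactly the same values as LOC100044627 at ZT10. The 2 genes were identical in 29 of the 33 libraries, and their sum was 293 to 338 FPKM at KO ZT14 and 337 to 394 FPKM at KO ZT10. The division between them is therefore uncertain, and neither difference is read as a change.

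Several groups held no called gene, where 7.35% of all genes tested were called, 5.08% higher and 2.26% lower. None of 31 oxidative phosphorylation genes (27 differences negative, median -0.04), 28 cytosolic ribosomal proteins (median -0.03), 27 proteasome subunits, 19 genes of the endoplasmic reticulum stress response, 12 of NAD salvage, 15 of cardiac stress and 14 of the cell cycle was called. None of 20 interferon-stimulated genes was called, although 18 of their differences were positive (median 0.18). In calcium handling 1 of 15 genes was called, Hrc, at 432 ± 2.52 FPKM at ZT14 against 486 ± 25.7 FPKM at ZT10. It kept its call only without KO ZT10 replicate 2 (adjusted p up to 0.18). Of 26 ribosome biogenesis factors 2 rose, Rrs1 (0.42) and Ubtf (0.30), of 11 Krüppel-like factors 3 rose (Klf4, Klf3 and Klf7), and of 17 p53 targets 2 were called higher and 2 lower. Each of these 4, Mdm2, Phlda3, Bbc3 and Trp53inp1, lost its call in at least 3 of the 6 fits without 1 library (adjusted p up to 0.102, 0.163, 0.114 and 0.125). Ubtf and Klf7 lost their calls in 4 and 2 of the 6 fits without 1 library (adjusted p up to 0.243 and 0.0697).

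Markers of heart muscle dominated every library, as the label of heart implies. None of 12 cardiomyocyte markers was called, and their summed level was 65300 to 67900 FPKM at ZT14 and 67400 to 70100 FPKM at ZT10. Of 10 endothelial markers 1 rose and 1 fell, where 5.08% of all genes were called higher and 2.26% lower. The receptor Flt1 had 25.2 ± 3.10 FPKM at ZT14 against 17.6 ± 0.895 FPKM at ZT10 (0.49, adjusted p = 0.000157), and the lipid carrier Fabp4 706 ± 21.7 FPKM against 854 ± 24.4 FPKM (-0.27). The list's median log2 difference was 0.01, with 5 differences positive and 5 negative. Its summed level, of which Fabp4 made up most, was 975 to 1010 FPKM at ZT14 and 1100 to 1140 FPKM at ZT10. None of 9 smooth muscle and pericyte markers was called, with all 9 differences positive, and none of 11 macrophage markers. Of 9 fibroblast markers Gsn rose and Col3a1 fell, of 4 atrial markers Stard10 fell, and of 4 Schwann cell and neuron markers Uchl1 rose. Each of these genes lost its call in at least 2 of the 6 fits without 1 library. Atrial markers summed to 2380 to 3440 FPKM at ZT14 and 1860 to 2890 FPKM at ZT10. Skeletal muscle markers summed to 356 to 430 FPKM at ZT14 and 206 to 717 FPKM at ZT10. All 7 red blood cell markers tested were higher in mean at ZT14 (median 0.50), with a summed level of 3670 to 6140 FPKM at ZT14 and 2710 to 4300 FPKM at ZT10. Of these Hba-a1, which has a near-identical copy, was called (adjusted p = 0.0484), although its libraries overlapped between times. Without KO ZT14 replicate 1, 5 of them were called and without KO ZT10 replicate 1, 3 were, while without any other library none was. The summed level of 8 lymphocyte markers was at most 1.71 FPKM at ZT14 and 2.30 FPKM at ZT10, and the neutrophil marker Ly6g was at 0 in all 6 libraries. The part of blood or of other cells in any gene's difference was not tested.

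The same step in WT hearts called 1355 genes (11.5%). Of the 866 genes called in KO hearts, 763 had the same sign in WT (88.1%, against 61.7% of all genes), and 381 were called with the same sign in both, 44% of the KO calls and 28.1% of the WT calls. Another 5 were called with opposite signs. Across all genes the steps of KO and WT correlated at 0.466 (Pearson, 11790 genes, which are not independent). A test of the difference itself, the KO step minus the WT step in the same limma fit, called 42 genes (0.356%), 33 higher and 9 lower in KO. With 1 library left out, the count was 18 (KO ZT10 replicate 3), 21 (KO ZT14 replicate 1 or WT ZT14 replicate 3), 22 (WT ZT10 replicate 2) or 23 (WT ZT14 replicate 1), and 28 to 58 otherwise. With median-ratio scaling the split was 20 higher and 19 lower, and with quantile normalization 15 and 5. With edgeR on rebuilt counts, which changes the model as well, it was 27 and 35.

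**Figure D4:**
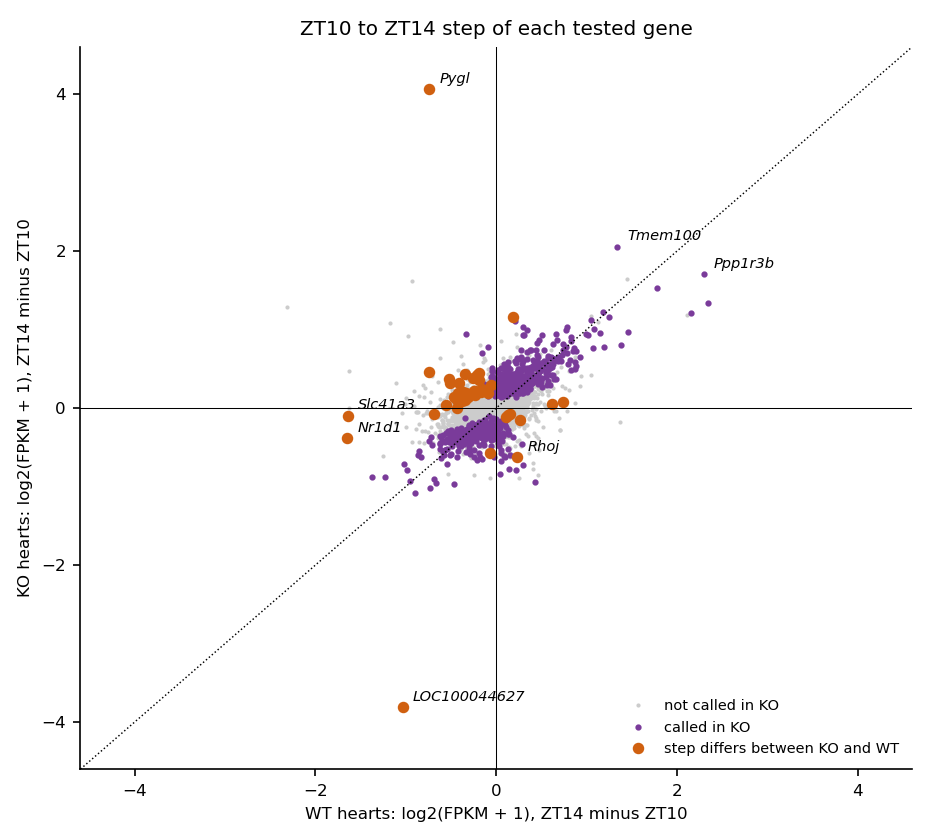
Difference in log2(FPKM + 1), ZT14 minus ZT10, of 11790 genes in KO hearts (vertical axis) against WT hearts (horizontal axis). Purple points were called in KO, grey points were not, and orange points are the 42 genes whose step differed between genotypes. Ppp1r3b lies near the dotted line of equal steps, at 1.71 in KO and 2.29 in WT, and Pygl far above it.

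Pygl differed most in size. In WT hearts it had 4.98, 8.42 and 1.52 FPKM at ZT14 and 6.71, 7.46 and 9.19 FPKM at ZT10, and the difference of steps was 4.80 ± 0.93 (adjusted p = 0.0166). Its call was lost without KO ZT10 replicate 3 (adjusted p = 0.0515) or WT ZT14 replicate 3 (adjusted p = 0.0594). Slc41a3, a magnesium transporter, had the smallest adjusted p. It stayed at 222 ± 15.2 FPKM at ZT14 and 237 ± 21.3 FPKM at ZT10 in KO hearts, where it was not called, while WT hearts had 8.60 ± 0.843 FPKM at ZT14 and 29.2 ± 5.35 FPKM at ZT10 (difference of steps 1.55 ± 0.19, adjusted p = 0.00016). For Nr1d1 the log2 step was -0.38 in KO and -1.65 in WT (difference 1.27 ± 0.23, adjusted p = 0.00711), and no other of the 19 clock genes was called in this test. In WT hearts 10 of the 19 clock genes were called, 3 higher and 7 lower, among them Dbp (-0.89), Ciart (-0.99), Per1 (-0.82) and Nfil3 (0.54). The difference of steps of Ciart was 1.12 (adjusted p = 0.055) and that of Nfil3 -0.51 (adjusted p = 0.095), so a difference from WT was not shown for them. The steps of Per2 (KO 0.65, WT 0.68) and Cry1 (KO 0.49, WT 0.49) differed by -0.03 ± 0.25 and 0.0016 ± 0.09.

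Other genes whose step differed included Rhoj, a small GTPase of endothelial cells, which fell in KO to 7.49 FPKM at ZT14, against 12.1 FPKM at ZT10, while WT hearts had 11.0 FPKM at ZT14 and 9.21 FPKM at ZT10. The difference of steps was -0.86 (adjusted p = 0.000523). The erythroid spectrin gene Sptb rose in KO (22.2 FPKM at ZT14, 16.2 FPKM at ZT10), with 23.8 and 30.5 FPKM in WT. Gelsolin, Gsn, which severs actin, had 449 FPKM at ZT14 and 394 FPKM at ZT10 in KO, and 415 and 525 FPKM in WT. For Max, the partner of MYC, the log2 step was 0.05 in KO and 0.62 in WT, for Wasf2 0.14 and -0.31, and for Cyth3 0.09 and -0.38. No fasting-responsive gene differed between genotypes by this test. For Pdk4, WT hearts had 269, 290 and 438 FPKM at ZT14 and 235, 234 and 254 FPKM at ZT10, a difference of steps of -1.38 ± 0.32 (adjusted p = 0.0519).

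**Figure D5:**
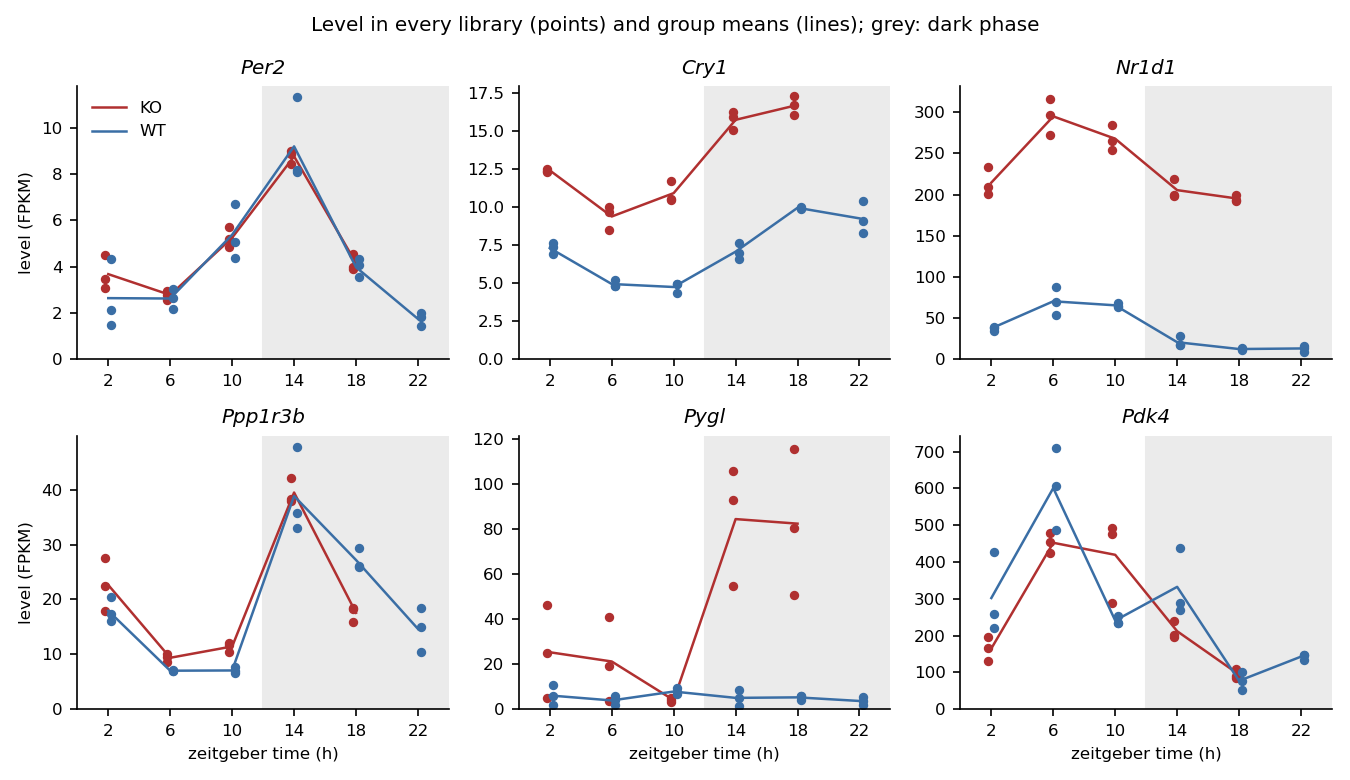
Level in FPKM of 6 genes over zeitgeber time (h) in every library (points) with group means (lines), in KO (red) and WT (blue) hearts, with the dark phase in grey. Pygl in KO spans 3.48 to 40.7 FPKM among the libraries of ZT6 and lies at 50.8 FPKM or above in all libraries of ZT14 and ZT18.

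Set among the other KO steps tested, the one across lights off called the fewest genes. The others called 1950 (16.5%) between ZT2 and ZT6, 986 (8.36%) between ZT6 and ZT10, and 1860 (15.8%) between ZT14 and ZT18. The steps into and out of ZT22 were not tested, as KO ZT22 had no FPKM. Neighbouring steps share libraries, and the numbers were not tested against one another. Over the day, Per2 in KO hearts was highest at ZT14 (8.76 ± 0.285 FPKM) and averaged 3.68, 2.78, 5.25 and 4.15 FPKM at ZT2, ZT6, ZT10 and ZT18. Ppp1r3b was likewise highest at ZT14, with 22.6, 9.36, 11.4, 39.5 and 17.6 FPKM from ZT2 to ZT18. Pygl varied widely between libraries of the same time, with 46.2, 24.8 and 4.71 FPKM at ZT2, 3.48, 40.7 and 19.2 FPKM at ZT6, and 50.8, 116 and 80.5 FPKM at ZT18. The KO ZT10 group was therefore the only one of the 5 KO times with all libraries below 5 FPKM. In WT hearts Pygl stayed between 1.52 and 10.7 FPKM in all 18 libraries. Pdk4 in KO hearts averaged 452 FPKM at ZT6, 419.5 FPKM at ZT10, 212 FPKM at ZT14 and 93.8 FPKM at ZT18.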

How the data were processed

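RNA-seq values per gene were deposited as FPKM, 1 column per library, for 33 of the 36 samples. The unit was inferred from the values, whose low steps match whole reads per gene length. The reads were mapped to mm10, per the submitters' processing notes, and neither aligner nor counter nor annotation is named in the sources used here. Tables deposited for the remaining 3 samples, KO ZT22, hold expected counts whose headers name KO ZT10 libraries. Their zeros match those of the same-named KO ZT10 library in 99.96% of genes, against 92.4% to 92.9% for another, so KO ZT22 was not analysed here. One repeated column was not used. Where headers and sample titles of WT ZT14 number the libraries differently, the sample record was followed. Of 18762 IDs, 18623 had a gene symbol.

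The 11790 genes that reached 1 FPKM in 3 or more libraries were fitted with limma 3.58.1 (empirical Bayes with trend, R 4.3.3) on log2(FPKM + 1), with 1 mean for each of 11 groups and 22 residual degrees of freedom. Contrasts were KO ZT14 minus KO ZT10 and its difference from WT ZT14 minus WT ZT10, two-sided, with Benjamini-Hochberg adjustment over all genes and a threshold of 0.05. Errors beside log2 differences are SE, and those beside FPKM are SD of 3 libraries. The scripts were tested on simulated data. No 2 libraries were identical, and libraries of a group differed by more than counting noise (chi-square per degree of freedom 3.83 to 6.54). Counts rebuilt from FPKM, gene length and recovered depth (77.7% to 90.1% of low values whole within 0.15 in the 6 libraries) served an alternative with edgeR 4.0.16.

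The genes named are the 15 largest non-overlapping called differences in each direction with a mean of at least 1 FPKM, all clock genes, up to 4 called members of each of the 43 gene lists and the 8 smallest adjusted p of the difference test. Others were added after their values were seen, and some genes that these rules name are not reported here. The members and lists were chosen with earlier results of these data known. Replicate numbers did not pair the libraries of the times. Alternatives were other scalings, pseudocounts and filters, a fit of the compared groups alone, a replicate block, edgeR, and leaving out each library.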

Additional observations from a re-analysis of the deposited data

Results flagged for a closer look

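The results singled out here are differences between KO and WT hearts in the step between ZT10 and ZT14, each from a test of the difference itself (KO ZT14 minus KO ZT10, less WT ZT14 minus WT ZT10) on the log2(FPKM + 1) scale. In all, 42 genes passed this test. The largest was that of Pygl, at 4.8, and it passed in 19 of 21 alternatives, and not without KO ZT10 replicate 3 (adjusted p = 0.0515) or WT ZT14 replicate 3 (adjusted p = 0.0594). Slc41a3 differed by 1.55 and Nr1d1 by 1.27. KO hearts had 25.8-fold the WT level of Slc41a3 at ZT14 and 8.13-fold at ZT10. For Nr1d1 the KO level was 9.91-fold that of WT at ZT14 and 4.09-fold at ZT10. Sptb differed by 0.78, Gsn by 0.52, Cyth3 by 0.47 and Wasf2 by 0.44, while the step was more negative in KO for Rhoj (-0.86) and Max (-0.57). Wasf2 lost its call in the fit of the compared groups alone (adjusted p = 0.0638), and the other 7 named from Slc41a3 to Max kept theirs in all 21 alternatives, which include leaving out each of the 12 KO and WT libraries compared. The gene with NCBI number 108167855 differed by 0.98, and lost its call in 11 of 20 alternatives. LOC100044627 differed by -2.77, lost its call in 14 of 21, and shares its reads with LOC100862455. Pygl, Sptb, Rhoj and Max lie in the same stretch of chromosome 12, between 70 and 80 Mb. Pygl also varied widely among KO libraries of the same time, from 3.48 to 40.7 FPKM at ZT6.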

How the results depend on the processing

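None of the 866 genes called for the KO step, or of the 42 called for the difference of steps, changed sign in an alternative that tested it. Of the 866, 842 had no overlap between the times. For these, leaving out a library or changing the pseudocount or filter could not have reversed the sign of the KO step. Against 866 genes called (599 higher, 267 lower), the compared groups alone gave 553 (392 higher, 161 lower), and a mean of at least 5 FPKM gave 169 lower, among fewer genes tested (7568). With 1 library left out the counts were 534 to 639, 385 to 459 higher and 142 to 199 lower, and 498 to 572 of the 866 genes were called again. Against 42 genes for the difference of steps (33 higher, 9 lower), median-ratio scaling gave 20 higher and 19 lower, quantile normalization 20 (15 and 5), the compared groups alone 21 (17 and 4) and edgeR 35 lower; leaving out 1 library gave 18 to 58, 13 to 44 higher and 4 to 17 lower. The cause of these shifts was not tested, except that fewer libraries or genes entered some fits. Same-numbered KO libraries of the times correlated at -0.13, 0.01 and 0.0074 in their deviations, and none correlated best with its own number, so the numbers were not taken as pairs. The replicate block gave 829 called genes (810 of them shared) and 36 for the difference. Of 83 named genes called, 49 kept their call with any of the 6 libraries left out and 34 did not, among them Per2, Pdk4, Hspa1a and Lcn2. Where no member of a list passed a filter, no value was computed. Low FPKM limits genes near 1 FPKM, such as Frat1, Fos and Atf3.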

Other observations

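Several factors of RNA splicing, looked at after their values were seen, also differed across lights off in KO hearts. Of 10 tested genes whose symbols begin with Srsf, the serine- and arginine-rich splicing factors, 5 were called, against 7.35% of all genes: Srsf1, Srsf3, Srsf7 and Srsf10 rose and Srsf5 fell. All 5 were called with the same sign in WT hearts (log2 steps 0.24, 0.30, 0.34, 0.43 and -0.83), so these steps are shared by both genotypes. Srsf7 had 20.4, 20.5 and 20.4 FPKM at ZT14 and 15.04, 14.1 and 13.97 FPKM at ZT10, tight groups far from overlap. Sfpq, which also acts in splicing, averaged 25.1 ± 0.445 FPKM at ZT14 against 17.5 ± 0.12 FPKM at ZT10 (log2 difference 0.50, adjusted p = 1.10e-07), and Rsrp1 95.6 FPKM against 59.7 FPKM. Both were called higher in WT hearts too (Sfpq 0.50, Rsrp1 0.73). Of 9 tested Sox transcription factors 5 were called. Sox7, Sox17 and Sox18, factors of blood vessel cells, and Sox13 rose, and Sox4 fell. In WT hearts all of these but Sox17 (0.11) were called with the same sign. Sox18 had 61.8, 46.7 and 46.9 FPKM at ZT14 and 37.3, 33.03 and 35.6 FPKM at ZT10. Among 200 such symbol families with at least 8 tested genes, these 2 held the highest shares of called genes, 55.6% for Sox and 50% for Srsf. Ppara, the receptor that induces many fasting genes, was higher at ZT14, at 14.4, 15.9 and 16.6 FPKM, against 9.70, 8.98 and 10.3 FPKM at ZT10 (0.64). It was called higher in WT hearts as well (0.70).

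Called genes lay densest in 1 stretch of the genome. Between 70 and 80 Mb of chromosome 12 (GRCm38), 13 of 51 tested genes were called (25.5%), against 7.35% of all genes tested. Of these 13, 4 were higher and 9 lower at ZT14. The share was the highest of 228 stretches of 10 Mb with at least 15 tested genes. The next highest was 20.6%, on chromosome 3. The stretch holds Pygl, Sptb, Rhoj and Hif1a, the hypoxia factor, which had 22.7, 20.6 and 21.9 FPKM at ZT14 against 33.5, 31.3 and 34.3 FPKM at ZT10. The stretch also holds 6 of the 42 genes whose step differed between KO and WT (Pygl, Rhoj, Sptb, Fntb, Max and Mthfd1). That test called 0.356% of all genes.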
